A study of Mus musculus with 2 samples.

Results

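Neurexins, neuroligins and their adhesion partners hold the 2 sides of a synapse together, and 9 of their genes were measured here in the hippocampus of aged mice. They are the neurexins Nrxn2 and Nrxn3, the neuroligins Nlgn1, Nlgn2 and Nlgn3, the leucine-rich repeat transmembrane proteins Lrrtm1, Lrrtm2 and Lrrtm4, and the secreted C1q-like protein C1ql3. They were chosen by gene symbol, with earlier results of these data known, and are 9 of the 55536 genes in the deposited gene tables. Other genes of these families were not analysed here, apart from C1ql2, which is among the partner genes described below. Hippocampus of female B6CASTF1/J mice aged 18 to 20 months gave 2 libraries of total RNA, each made from 300 ng. B6CASTF1/J is the first-generation cross of the C57BL/6J and CAST/EiJ strains, so every animal carries 1 chromosome set of each strain, and the alleles were not separated in the tables. Both libraries form 1 group with no treatment, genotype or age to compare, and they are called replicate 2 and replicate 1 as in the labels. Each has a label of its own for the tissue sample and both share 1 donor label, which does not show that they came from separate animals, so the spread between them may be technical.

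Neurexins sit in the presynaptic membrane. Neuroligins and LRRTM proteins sit in the postsynaptic membrane opposite and bind them across the cleft. Each neurexin gene makes a long alpha form from a promoter at its start and a short beta form from a promoter inside the gene. The alpha form carries a row of laminin-neurexin-sex hormone binding globulin (LNS) domains, and the beta form keeps the last of them. Both end in the same membrane anchor and cytoplasmic tail. Alternative splicing then sets which partner binds: the insert at splice site 4, in the last LNS domain, is known to favour cerebellins and to prevent binding of LRRTM proteins. Nlgn1 is known for excitatory synapses, Nlgn2 for inhibitory ones and Nlgn3 for both. Short inserts at 2 sites of the neuroligins, A and B, likewise alter partner choice. C1ql3 is secreted by neurons and binds the receptor Adgrb3 and certain neurexin 3 forms.

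The inserts on which the transcripts of these genes differ are shown first, because the results below divide the transcripts by them. Sequences run 5′ to 3′ on the coding strand and were read from the GENCODE M21 transcripts, on mm10 coordinates. The splice site 4 exon of Nrxn3 is a coding exon of 90 bases at chr12:90199147-90199236 (+ strand), printed in lower case throughout.
Nrxn3 splice site 4 exon: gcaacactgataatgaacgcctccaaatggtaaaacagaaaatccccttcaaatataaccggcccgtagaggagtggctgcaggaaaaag

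The site A exons of the neuroligins are coding exons of 51 to 60 bases. In Nlgn1 the site A exon is at chr3:25920178-25920237 (- strand), and in Nlgn2 at chr11:69830563-69830613 (- strand). Nlgn3 has a pair of such exons, an upstream one at chrX:101303072-101303131 and a downstream one at chrX:101307075-101307134 (both + strand). Nlgn1 also has a site B insert of 27 bases at chr3:25439865-25439891 (- strand), which extends an exon. Capitals mark differences between the Nlgn1 exon and the downstream Nlgn3 exon, and the other 3 sequences are in lower case throughout.
Nlgn1 site A exon: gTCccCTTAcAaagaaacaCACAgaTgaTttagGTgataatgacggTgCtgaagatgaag
Nlgn3 downstream site A exon: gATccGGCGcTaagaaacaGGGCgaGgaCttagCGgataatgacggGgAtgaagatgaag
Nlgn3 upstream site A exon: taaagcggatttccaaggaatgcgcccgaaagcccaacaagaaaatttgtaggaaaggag
Nlgn2 site A exon: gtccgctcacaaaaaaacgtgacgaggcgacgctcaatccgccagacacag
Nlgn1 site B insert: gtaaccgttggagcaattcaaccaaag
The Nlgn1 exon and the downstream Nlgn3 exon were identical at 43 of 60 bases (71.7%). The upstream and the downstream exon of Nlgn3 were identical at 19 of 60 (31.7%).

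All 9 genes were detected in both libraries, and Nrxn2 was the most abundant. Levels are in TPM, an abundance corrected for transcript length and scaled to the same total in every library, from the deposited gene tables in the layout that RSEM writes. Nrxn2 had 164 TPM in replicate 2, against 176 in replicate 1, a mean of 170.3 ± 8.34 TPM (SD, n = 2). That placed it above 97.2% of the 12733 protein-coding genes that reached 1 TPM in both libraries. The median of the 9 genes was 68.1 TPM, that of Nrxn3, against 14.4 TPM over those detected protein-coding genes. The lowest of the 9 was Lrrtm2 at 18.3 ± 0.509 TPM (SD, n = 2), and Nrxn2 was 9.32-fold above it.

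**Figure D1:**
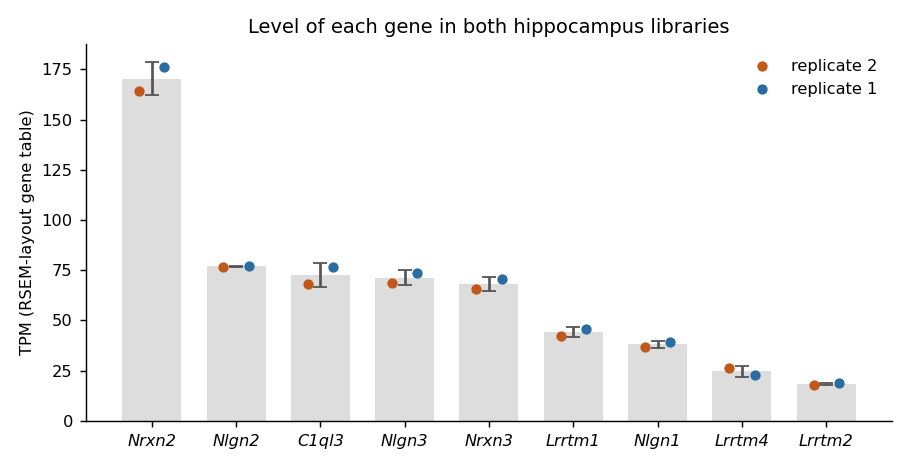
Level of the 9 genes in TPM (vertical axis), in descending order. Bars are means of 2 libraries with the SD, and points are replicate 2 (orange) and replicate 1 (blue). Nrxn2 stands alone at 164 and 176 TPM, 4 genes lie between 65.5 and 77.2 TPM, and Lrrtm2 is lowest.

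Nlgn2, C1ql3, Nlgn3 and Nrxn3 followed Nrxn2, and neighbours among them could not be put in order. Their means lay between 77.0 and 68.1 TPM, and each step between neighbours was smaller than the larger of their SDs. Lrrtm1, Nlgn1, Lrrtm4 and Lrrtm2 came next, each separated from the gene above it by more than that SD. With 2 libraries an SD is a rough guide, and these steps were not tested. Nlgn2 was above Nlgn3 and Nrxn3, which are not its neighbours in this order, in both libraries of the RSEM layout. In a tissue homogenate, fewer cells of a type and less RNA per cell cannot be told apart, so a level here is an average over all hippocampal cells.

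The libraries differed little in these genes. Ratios were formed from expected counts, which are estimated numbers of reads, scaled by the trimmed mean of M-values (TMM) method. The gene tables assigned 36307291 counts in replicate 2 and 35358140 counts in replicate 1. None of the 9 genes was more than 2-fold apart, where 0.384% of the 14307 genes that averaged 50 counts or more were. None was past 1.5-fold, where 1.64% of those genes were, and none past 1.2-fold, where 10.4% were. Replicate 2 was higher for 5 of the genes and lower for 4. The median log2 ratio of the 9, replicate 2 over replicate 1, was 0.0042, against 0.00040 over all those genes. The largest difference was in Lrrtm4, with 1956 counts in replicate 2 and 1661 counts in replicate 1, a ratio of 1.15 (95% exact binomial interval 1.08 to 1.23). C1ql3 had the lowest ratio, 0.928 (0.891 to 0.966), from 4531 counts in replicate 2 and 4769 counts in replicate 1. The interval left out 1 for Nrxn2, Nlgn1, Nlgn2, Lrrtm4 and C1ql3. How often it does so over all genes was not counted, so this is not a trait of these genes. These intervals cover counting error only, and 17697 genes varied between the libraries by a further 4.66%, the common biological coefficient of variation from edgeR.

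**Figure D2:**
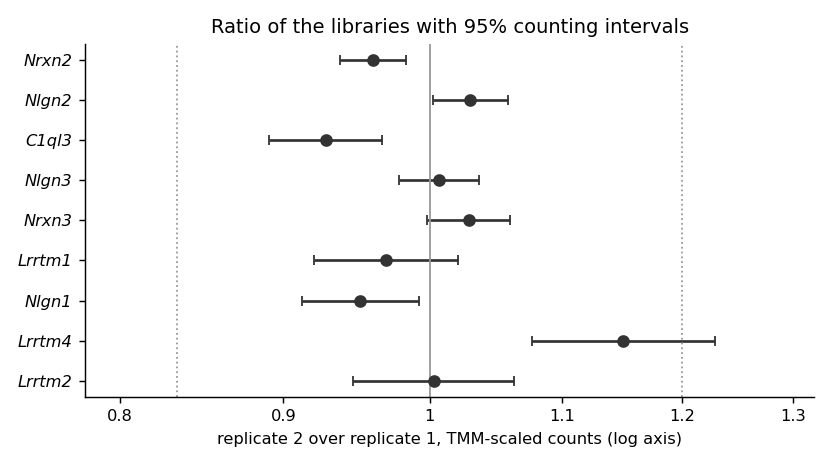
Ratio of replicate 2 over replicate 1 in TMM-scaled counts (horizontal log axis) for each gene, with 95% exact binomial intervals. Dotted lines mark 1.2-fold either way; all 9 points lie between them, from 0.928 for C1ql3 to 1.15 for Lrrtm4.

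On the TPM scale the direction differed for some genes. TPM was lower in replicate 2 for 8 of the 9, the exception being Lrrtm4 at 26.5 TPM in replicate 2, against 22.7 in replicate 1. The median log2 TPM ratio, replicate 2 over replicate 1, was -0.10 for the 9 and -0.06 over 14247 genes. Nrxn3 is a gene whose direction depends on the scale: it had 65.5 TPM in replicate 2, against 70.7 in replicate 1, but 8745 counts in replicate 2 and 8302 counts in replicate 1, a scaled ratio of 1.03 (0.998 to 1.06).

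Marker lists of some non-neuronal cell types differed between the libraries. Summed over 4 oligodendrocyte markers, the level was 698 TPM in replicate 2, against 974 in replicate 1. Over 4 choroid plexus markers it was 55.0 TPM in replicate 2, against 157 in replicate 1. The median of that list was close, 2.635 TPM in replicate 2, against 2.925 in replicate 1, and 1 of its 2 counted genes was more than 2-fold apart. Over 5 meningeal fibroblast markers it was 45.8 TPM in replicate 2, against 32.3 in replicate 1, and 4 of the 5 were more than 2-fold apart in scaled counts, with a median log2 ratio of 1.08. The neuronal lists were closer: 5 excitatory neuron markers summed to 2416 TPM in replicate 2, against 2574 in replicate 1, and 5 GABAergic interneuron markers to 409 TPM in replicate 2, against 434 in replicate 1. Of the markers that fit the tissue label, 5 of 5 for excitatory neurons and 3 of 3 for dentate granule cells were detected. In scaled counts, 4 of 4 oligodendrocyte and 2 of 2 counted choroid plexus markers were lower in replicate 2, and 5 of 5 meningeal markers were higher. The part of these cell types in the ratios above was not tested.

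Among the neurexins, Nrxn2 made up 71.4 ± 0.0926% and Nrxn3 the rest of their summed TPM (SD, n = 2). Nrxn2 lies on chromosome 19 (6418731 to 6544169, + strand) over 125 kb. Nrxn3, on chromosome 12 (88722876 to 90334935, + strand), is the longest of the 9 genes at 1612 kb. The annotation places the first beta start 79.1 kb into Nrxn2 and 1090 kb into Nrxn3. It lists 18 transcripts of Nrxn2, of which 6 encode a complete alpha and 2 a complete beta form. Of 13 Nrxn3 transcripts, 3 are alpha and 2 are beta, and the others of both genes, which are incomplete, annotated for decay or non-coding, were counted as neither.

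Alpha and beta forms had opposite weights in the 2 genes. Nrxn2 alpha transcripts summed to 36.8 TPM in replicate 2, against 40.6 in replicate 1, and Nrxn2 beta transcripts to 76.2 TPM in replicate 2, against 81.7 in replicate 1. Alpha was thus 32.9 ± 0.456% of the alpha and beta total of Nrxn2 (SD, n = 2). Nrxn3 alpha transcripts summed to 27.4 TPM in replicate 2, against 29.1 in replicate 1, and Nrxn3 beta transcripts to 5.0 TPM in replicate 2, against 4.88 in replicate 1. Alpha was 85.1 ± 0.738% of that total in Nrxn3 (SD, n = 2). The shares of the 2 genes differed by far more than either SD, in both libraries. Beta over alpha was 2.04 in Nrxn2 and 0.175 in Nrxn3. A second deposited quantification, in the layout that kallisto writes, gave alpha shares of 36.8 ± 0.658% for Nrxn2 and 85.6 ± 0.760% for Nrxn3 (SD, n = 2 each).

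**Figure D3:**
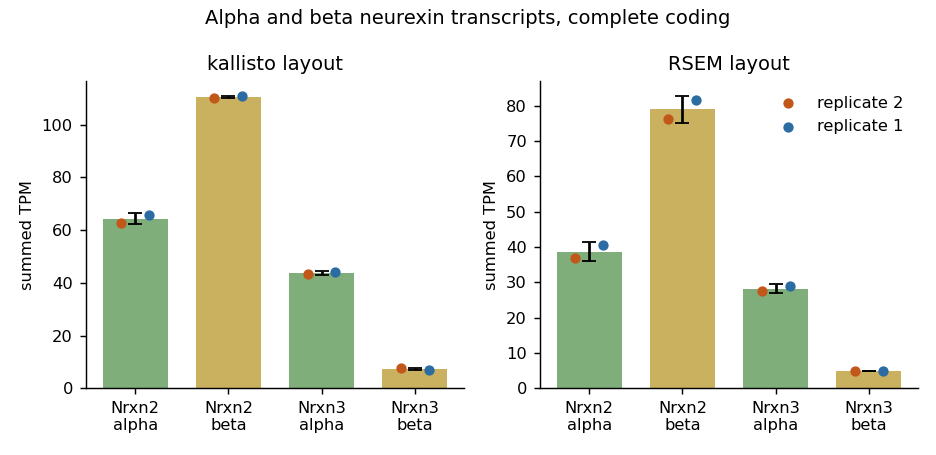
Summed TPM (vertical axes) of complete coding alpha and beta transcripts of Nrxn2 and Nrxn3, in the kallisto-layout tables on the left and the RSEM-layout tables on the right. Bars are means of 2 libraries with the SD, and points are replicate 2 (orange) and replicate 1 (blue). Beta exceeds alpha in Nrxn2 and alpha exceeds beta in Nrxn3 in both tables.

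A length correction stands behind these shares, since an alpha transcript yields more fragments than a beta transcript of the same abundance. Counted without that correction, alpha took 44.7 ± 0.536% of the Nrxn2 and 93.9 ± 0.219% of the Nrxn3 alpha and beta counts (SD, n = 2 each). The order within each gene was the same on both scales. In counts, Nrxn2 alpha had 5635 in replicate 2 and 5826 in replicate 1, and Nrxn2 beta had 7075 in replicate 2 and 7095 in replicate 1. Nrxn3 beta rested on 373 counts in replicate 2 and 341 counts in replicate 1.

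Single transcripts carried most of each form. Nrxn2 beta was almost all Nrxn2-202, which has 3503 bases and 7 exons, at 76.1 TPM in replicate 2, against 81.6 in replicate 1. It alone was 46.3% of the TPM of the gene in replicate 2 and 46.3% in replicate 1. Nrxn2 alpha came mainly from Nrxn2-204, with 23.1 TPM in replicate 2, against 25.1 in replicate 1, and Nrxn2-201, with 13.0 TPM in replicate 2, against 14.5 in replicate 1. Nrxn3 alpha was mainly Nrxn3-205, at 24.7 TPM in replicate 2, against 24.4 in replicate 1. Nrxn3-201, an alpha transcript that starts later and encodes a shortened N-terminus, had 2.77 TPM in replicate 2, against 4.69 in replicate 1. Nrxn3 beta was mainly Nrxn3-203, at 4.28 TPM in replicate 2, against 4.16 in replicate 1.

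The 2 quantifications divided Nrxn2 alpha reads among transcripts differently. Nrxn2-201 and Nrxn2-216 have coding sequences of the same length, 4509 bases; the second was singled out after its values were seen. In the kallisto layout Nrxn2-201 had 10.3 TPM in replicate 2, against 20.4 in replicate 1, while Nrxn2-216 had 10.5 TPM in replicate 2, against 0.465 in replicate 1. Their sum was 20.9 TPM in each library. In the RSEM layout Nrxn2-216 was listed at 0 in both.

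Windows at annotated starts of Nrxn3 transcripts are shown for the main alpha and the beta transcripts. Each is the RefSeq window of 250 bases before to 50 after an annotated start, build GRCm38.p6, + strand of chromosome 12. Capitals mark the dinucleotide CG, which reads the same on both strands. The first window is at chr12:88794254-88794553, at the start of the main complete alpha transcript, Nrxn3-205. It lies inside the annotated gene, which begins at 88722876, and near that position the non-coding Nrxn3-204 and Nrxn3-209 and the decay transcripts Nrxn3-208 and Nrxn3-213 start. Each of these runs past the Nrxn3-205 start, so the first window lies within their span. Whether it is a promoter was not tested, and its CG count need not be that of an alpha promoter. The second is at chr12:89812233-89812532, at the start of the beta transcripts Nrxn3-202 and Nrxn3-203.
Nrxn3 window at the Nrxn3-205 start: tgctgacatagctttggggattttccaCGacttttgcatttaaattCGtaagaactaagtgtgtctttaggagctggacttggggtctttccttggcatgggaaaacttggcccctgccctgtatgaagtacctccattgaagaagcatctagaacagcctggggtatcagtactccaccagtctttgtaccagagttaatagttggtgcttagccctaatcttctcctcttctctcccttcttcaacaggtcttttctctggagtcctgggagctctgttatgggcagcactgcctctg
Nrxn3 window at the beta start: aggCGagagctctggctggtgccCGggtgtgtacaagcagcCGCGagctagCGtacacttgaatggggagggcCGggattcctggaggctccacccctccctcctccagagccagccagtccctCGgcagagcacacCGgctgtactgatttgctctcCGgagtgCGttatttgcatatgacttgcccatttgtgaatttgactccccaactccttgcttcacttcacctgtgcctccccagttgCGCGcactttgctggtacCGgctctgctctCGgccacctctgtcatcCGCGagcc
The Nrxn3-205 window held 2 CG and the beta window 16. Another Nrxn3 window in the table, at chr12:88953140-88953439 and the start of the shortened alpha transcript Nrxn3-201, held 6. Of all 32851 promoter windows, 85.9% held at least 2, 56.4% at least 6 and 33.0% at least 16.

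The share with the splice site 4 exon could be compared between alpha and beta forms only as far as the annotated transcripts allowed. Over complete coding transcripts, the exon was present in 79.4 ± 0.0041% of Nrxn2 TPM and 87.3 ± 0.668% of Nrxn3 TPM (SD, n = 2 each). Within Nrxn2, alpha transcripts with the exon summed to 13.7 TPM in replicate 2, against 15.5 in replicate 1. The 1 alpha transcript without it, Nrxn2-204, stood at 23.1 TPM in replicate 2, against 25.1 in replicate 1. By these transcripts the exon was in 37.6 ± 0.741% of alpha and 99.8 ± 0.0532% of beta Nrxn2 (SD, n = 2 each). The only annotated beta transcript without it, Nrxn2-203, also ends further downstream and has 1059 coding bases, against 1980 in Nrxn2-202. A beta form that lacks the exon but ends like Nrxn2-202 is not listed. The alpha transcripts differ elsewhere too: Nrxn2-204 has 4920 coding bases, and Nrxn2-201, the main one with the exon, has 4509. Neither the alpha share nor the beta share therefore measures use of the exon alone. In Nrxn3 all 3 annotated alpha transcripts hold the exon, so their 100% is set by the annotation and gives no comparison with beta. The exon was in 14.6 ± 0.25% of Nrxn3 beta TPM (SD, n = 2). The beta transcripts, Nrxn3-202 with the exon and Nrxn3-203 without it, also differ elsewhere, with 1701 and 1290 coding bases. Nrxn3 beta with the exon had 0.720 TPM in each library, and without it 4.28 TPM in replicate 2, against 4.16 in replicate 1.

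In the kallisto layout the exon was in 43.8 ± 0.691% of alpha and 99.7 ± 0.0385% of beta Nrxn2 (SD, n = 2 each). It was in 34.8 ± 0.267% of beta Nrxn3 (SD, n = 2). The Nrxn3 beta share was higher there, from 2.67 TPM with the exon in replicate 2 and 2.47 TPM in replicate 1. These shares divide reads among the transcripts that the annotation lists, and not every combination of start and exon is listed. An Nrxn3 alpha form without the exon could be counted only in Nrxn3-213, a transcript annotated for nonsense-mediated decay, at 5.84 TPM in replicate 2, against 5.94 in replicate 1. With all spliced transcripts that span the exon, decay transcripts included, 77.6 ± 0.467% of Nrxn3 TPM held it, against 79.4 ± 0.0041% of Nrxn2 TPM (SD, n = 2 each). In TPM the order of the 2 genes is thereby turned round. The kallisto layout did the same, at 76.6 ± 0.971% for Nrxn3 and 79.1 ± 0.0892% for Nrxn2 (SD, n = 2 each). In expected counts the order was not turned round, at 85.4 ± 0.0824% for Nrxn3 and 73.1 ± 0.0512% for Nrxn2 (SD, n = 2 each).

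Both neurexin genes also gave reads to transcripts that encode no complete protein. Complete coding transcripts were 69.1 ± 0.478% of Nrxn2 TPM and 48.8 ± 1.03% of Nrxn3 TPM (SD, n = 2 each). In counts they were 93.6 ± 0.0405% and 68.8 ± 0.647%. The most abundant of the others in Nrxn2 was Nrxn2-213, of 576 bases, at 30.0 TPM in replicate 2, against 27.1 in replicate 1. Its reads numbered 391 in replicate 2 and 330 in replicate 1. Nrxn2-209 and Nrxn2-211 had 4.94% and 5.17% of the Nrxn2 TPM in replicate 2, and 6.87% and 4.77% in replicate 1. In Nrxn3 the 525-base Nrxn3-211 had 10.1 TPM in replicate 2, against 14.4 in replicate 1. Nrxn3-204, also non-coding, had 6.49 TPM in replicate 2, against 6.09 in replicate 1. Decay transcripts were 17.6 ± 1.23% of Nrxn3 TPM (SD, n = 2), shared between Nrxn3-213 and Nrxn3-208, the second at 6.23 TPM in replicate 2, against 5.85 in replicate 1.

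**Figure D4:**
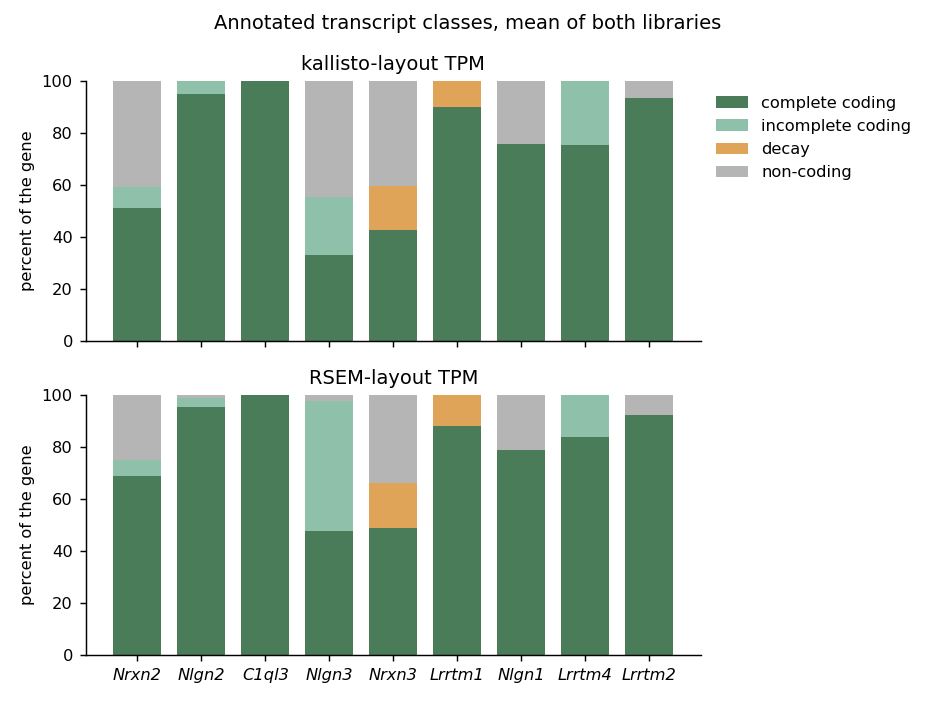
Percent of each gene's TPM (vertical axes) in 4 annotated transcript classes, as means of both libraries, in the kallisto layout above and the RSEM layout below. C1ql3 is all complete coding; Nlgn3 has the smallest complete coding part, 33.2% in the kallisto layout and 47.7% in the RSEM layout.

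Among the neuroligins, Nlgn2, the inhibitory-synapse member, had 76.8 TPM in replicate 2, against 77.2 in replicate 1. Nlgn3 had 68.7 TPM in replicate 2, against 73.8 in replicate 1. Nlgn1, the excitatory-synapse member, was lowest with 36.6 TPM in replicate 2, against 39.4 in replicate 1. Nlgn2 was 41.4 ± 1.15% of their summed TPM, Nlgn3 38.2 ± 0.735% and Nlgn1 20.4 ± 0.418% (SD, n = 2 each). Nlgn1 was below the other two in both libraries and both quantifications.

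The place of Nlgn3 depended on how its transcripts were counted. In the kallisto layout Nlgn3 was the highest neuroligin, at 152 TPM in replicate 2, against 157 in replicate 1, and Nlgn2 fell to 36.0 ± 1.09% of the family (SD, n = 2). The 2 layouts gave different shares to short and incomplete transcripts. In the RSEM layout Nlgn3-203, an incomplete coding transcript of 1852 bases, held 33.3 TPM in replicate 2, against 38.1 in replicate 1, close to the complete Nlgn3-201 at 30.9 TPM in replicate 2, against 31.8 in replicate 1. Nlgn3-203 was 17.1% of Nlgn3 counts in replicate 2 and 18.9% in replicate 1. In the kallisto layout, 2 short non-coding transcripts singled out after their values were seen, Nlgn3-204 and Nlgn3-205, took 16.4% and 28.8% of Nlgn3 TPM in replicate 2, and 13.0% and 31.0% in replicate 1. With complete coding transcripts alone, Nlgn2 was 54.1% of the family in the kallisto layout and 53.5% by RSEM layout tables. Nlgn3 then had 33.7 TPM in replicate 2, against 34.2 in replicate 1 (RSEM layout). Nlgn1 was still lower but nearer to Nlgn3 than over all transcripts, at 29.0 TPM in replicate 2, against 31.1 in replicate 1. The kallisto-layout means of complete coding transcripts were 47.4 TPM for Nlgn1 and 51.3 TPM for Nlgn3.

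The insert at site A was near an even split in Nlgn1. Complete coding Nlgn1 transcripts with it were 45.9 ± 1.73% of the TPM (SD, n = 2), at 47.1% in replicate 2 and 44.7% in replicate 1. Nlgn1-201 and Nlgn1-205 hold both the site A exon and the site B insert, while Nlgn1-203 and Nlgn1-202 hold neither. The A and B shares are therefore 1 measurement here. Nlgn1-203 had 15.3 TPM in replicate 2, against 15.8 in replicate 1, and Nlgn1-201 had 9.39 TPM in replicate 2, against 8.95 in replicate 1. Nlgn1-205, the longest at 11807 bases, had 4.29 TPM in replicate 2, against 4.96 in replicate 1. In counts, which weight long transcripts more, the share with the inserts was 65.9 ± 1.38% (SD, n = 2). Nlgn1-204, a non-coding transcript, took 20.9 ± 0.197% of Nlgn1 TPM (SD, n = 2).

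Nlgn2 and Nlgn3 could be divided less far. Both complete Nlgn2 transcripts hold the site A exon: Nlgn2-202 at 64.7 TPM in replicate 2, against 65.8 in replicate 1, and Nlgn2-201 at 8.45 TPM in replicate 2, against 8.46 in replicate 1. A form of Nlgn2 without the exon is annotated only as the incomplete Nlgn2-203, at 4.18% of Nlgn2 TPM in replicate 2 and 2.37% in replicate 1. All complete Nlgn3 transcripts hold the downstream exon. The upstream exon was in 7.76 ± 0.724% of their TPM (SD, n = 2), all of it from Nlgn3-206, at 2.79 TPM in replicate 2, against 2.48 in replicate 1. In the kallisto layout it was in 4.46 ± 1.26% (SD, n = 2). Nlgn3-203, the abundant incomplete transcript, lacks both exons. Over all spliced Nlgn3 transcripts that span them, the downstream exon was in 48.8 ± 2.15% and the upstream exon in 3.79 ± 0.520% of the TPM, and in the kallisto layout in 59.9 ± 3.54% and 2.69 ± 0.913% (SD, n = 2 each).

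Nlgn1 lies on chromosome 3 (25426215 to 26332460, - strand), Nlgn2 on chromosome 11 (69823122 to 69837784, - strand) and Nlgn3 on chromosome X (101299168 to 101325963, + strand). No other gene overlaps Nlgn2 in the annotation. The transcripts that overlap the other 2 neuroligins, among them the antisense A830092H15Rik at Nlgn1, reached at most 3.38 TPM.

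The LRRTM proteins are postsynaptic ligands of neurexins at excitatory synapses, and Lrrtm4 also binds heparan sulphate proteoglycans. Lrrtm1 had 42.5 TPM in replicate 2, against 45.9 in replicate 1. Lrrtm4 had 26.5 TPM in replicate 2, against 22.7 in replicate 1. Lrrtm2 had 17.9 TPM in replicate 2, against 18.6 in replicate 1. The order was the same in both libraries. Lrrtm1 was 50.8 ± 2.67% of their summed TPM, Lrrtm4 28.3 ± 3.20% and Lrrtm2 21 ± 0.535% (SD, n = 2 each). The kallisto layout gave 48.6 ± 3.47%, 30.8 ± 4.46% and 20.5 ± 0.986% in that order.

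Lrrtm1 (chromosome 6, 77242689 to 77257791, + strand) lies inside Ctnna2, and Lrrtm2 (chromosome 18, 35209003 to 35215024, - strand) inside Ctnna1, each on the other strand. Ctnna2 and Ctnna1 encode alpha-catenins, which link cadherins to actin. Ctnna2 had 30.4 TPM in replicate 2, against 33.4 in replicate 1, and Ctnna1 had 17.3 TPM in replicate 2, against 18.5 in replicate 1. Whether the counting used the strand of the reads is not given in the sources used here, so reads where the exons of these pairs overlap may have been shared. Signal tracks by strand are listed in the deposited notes.

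Lrrtm1 was mostly complete coding. Lrrtm1-202 had 27.3 TPM in replicate 2, against 32.4 in replicate 1, and Lrrtm1-203 had 9.70 TPM in replicate 2, against 8.71 in replicate 1. Lrrtm1-201, annotated for decay, had 5.48 TPM in replicate 2, against 4.85 in replicate 1. Lrrtm2 was mostly Lrrtm2-201, at 14.0 TPM in replicate 2, against 14.3 in replicate 1. Lrrtm2-203 encodes 804 coding bases against 1545 in Lrrtm2-201, and had 3.01 TPM in replicate 2, against 2.44 in replicate 1. The non-coding Lrrtm2-202 had 0.94 TPM in replicate 2, against 1.88 in replicate 1.

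Of the LRRTM genes, Lrrtm4 was spread over the most transcripts. On chromosome 6 (80018877 to 80810143, + strand), it has 6 complete coding transcripts with 2 coding ends. The distal end, in 3 transcripts with up to 1773 coding bases, summed to 11.3 TPM in replicate 2, against 10.5 in replicate 1. The proximal end, in 3 transcripts with up to 1557 coding bases, summed to 9.84 TPM in replicate 2, against 9.44 in replicate 1. The distal end was thus 53.0 ± 0.450% of their TPM, and 51.5 ± 2.07% in the kallisto layout (SD, n = 2 each). In counts it was 44.0 ± 1.58% (SD, n = 2). The sums were steadier than the single transcripts. Lrrtm4-208 had 8.93 TPM in replicate 2, against 5.99 in replicate 1, while Lrrtm4-205, with the same end, had 2.33 TPM in replicate 2, against 4.54 in replicate 1. Lrrtm4-206, Lrrtm4-201 and Lrrtm4-202, with the proximal end, had 4.93, 3.52 and 1.39 TPM in replicate 2, and 4.42, 2.72 and 2.30 TPM in replicate 1.

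Incomplete transcripts of Lrrtm4 had a larger part in its TPM than in its counts. Lrrtm4-204 and Lrrtm4-207, of 506 and 675 bases, had 3.54 and 1.90 TPM in replicate 2, and 1.68 and 1.01 TPM in replicate 1. Complete coding transcripts of Lrrtm4 summed to 21.1 TPM in replicate 2, against 20.0 in replicate 1. In counts the incomplete transcripts held 3.53% of Lrrtm4 in replicate 2 and 1.95% in replicate 1, and complete coding transcripts held 96.5% in replicate 2 and 98.1% in replicate 1.

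C1ql3 (chromosome 2, 13003457 to 13011806, - strand) has 1 annotated transcript, C1ql3-201, of 2535 bases with 765 coding. It had 68.2 TPM in replicate 2, against 76.7 in replicate 1, on a level with Nlgn2, Nlgn3 and Nrxn3. In the kallisto layout it had 118 TPM in replicate 2, against 126 in replicate 1. Its reads did not have to be divided among transcripts. Its receptor Adgrb3 had 38.4 TPM in replicate 2, against 39.5 in replicate 1.

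TPM in the kallisto layout was higher than in the RSEM layout for each of the 9 genes, as it was for most genes. Over detected protein-coding genes the median ratio, kallisto over RSEM, was 1.67. Among the 9 it ran from 1.54 for Lrrtm1 to 2.17 for Nlgn3, and Nrxn2 was next at 2.01. With complete coding transcripts alone it ran from 1.49 for Nrxn2 to 1.69 for C1ql3, a narrower range. The order of genes then also changed: Nrxn2 stayed first at 118 TPM, Nlgn2 and C1ql3 followed at 73.7 TPM and 72.5 TPM, and Lrrtm1 at 39.0 TPM stood above Nlgn3 at 34.0 TPM and Nrxn3 at 33.2 TPM (RSEM layout). From the fourth place down the kallisto layout gave the same order of complete coding transcripts.

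**Figure D5:**
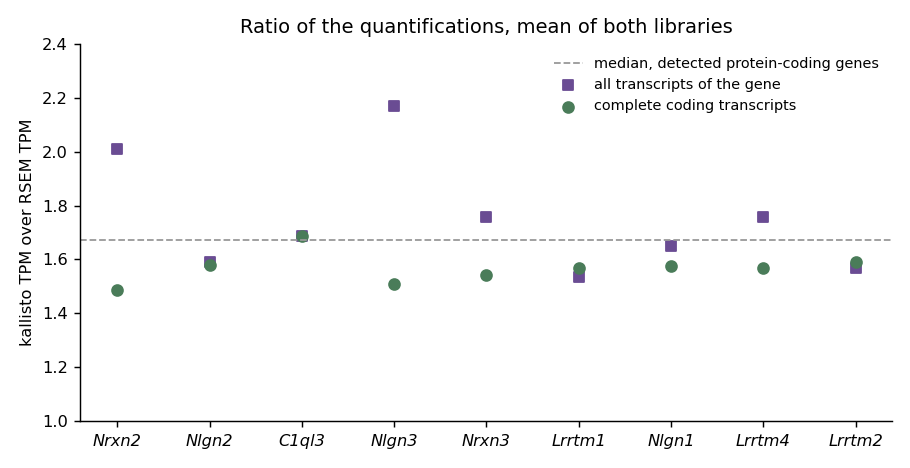
Mean TPM of the kallisto layout divided by that of the RSEM layout (vertical axis) for each gene, over all its transcripts (squares) and over complete coding transcripts (circles). The dashed line is the median of detected protein-coding genes, 1.67; squares for Nlgn3 (2.17) and Nrxn2 (2.01) stand highest and circles lie between 1.49 and 1.69.

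The wider pathway was described with 57 genes in 7 lists. Of these, 56 reached 1 TPM in both libraries, and the exception was Nxph4, a neurexophilin, with 1.07 TPM in replicate 2, against 0.5 in replicate 1. None of the 56 that averaged 50 counts or more was more than 2-fold apart, where 0.384% of all such genes were. Replicate 2 was higher for 35 of them and lower for 21, and the median log2 ratio was 0.01. Their median level was 30.6 TPM, and 7 of the 9 genes above lay over it.

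Presynaptic adaptors of neurexins were all detected (6 of 6). Apba2, also called Mint2, was highest at 98.1 ± 2.15 TPM, followed by the small scaffold Lin7b at 52.5 ± 2.36 TPM, and its paralogue Lin7a was lowest at 12.2 ± 1.04 TPM (SD, n = 2 each). Secreted ligands were the lowest list, at a median level of 5.97 TPM in replicate 2, against 4.91 in replicate 1. C1ql2, known from dentate granule cells, led it at 41.6 ± 2.58 TPM, with Nxph1 at 14.0 ± 0.304 TPM (SD, n = 2 each). The 6 counted ligands each had the higher scaled count in replicate 2, by 0.24 on the log2 scale at the median, against 0.00040 over all genes that averaged 50 counts. Their ratios ran from 1.00 for Nxph1, which was nearly equal, to 1.75. The share of all genes higher in replicate 2 was not counted.

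Other postsynaptic neurexin binders were led by the calsyntenin Clstn1 at 345 ± 7.08 TPM and the latrophilin Adgrl1 at 119.5 ± 5.71 TPM (SD, n = 2 each). Of this list 10 of 10 were detected. The receptors of C1ql3 and Lrrtm4 were Adgrb3 at 38.9 ± 0.792 TPM and the glypican Gpc4 at 21.9 ± 1.1 TPM. Mdga1 and Mdga2, which bind neuroligins and block neurexin binding, stood at 23.4 ± 2.37 TPM and 16.0 ± 0.679 TPM (SD, n = 2 each).

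Postsynaptic scaffolds had the highest median of the 7 lists, 70.2 TPM in replicate 2, against 71.0 in replicate 1. Dlg4, which encodes PSD-95, was at 338 ± 14.5 TPM and Shank1 at 249 ± 5.22 TPM. Gphn, which encodes gephyrin, the scaffold of inhibitory synapses that binds Nlgn2, was lowest at 24.5 ± 0.849 TPM (SD, n = 2 each). The list of other adhesion molecules across the synapse had 22 of 22 genes detected. Ptprs, a receptor tyrosine phosphatase, led at 239 ± 9.21 TPM, ahead of Cadm3 at 143 ± 1.37 TPM, and Il1rapl1 was lowest at 7.39 ± 0.106 TPM (SD, n = 2 each).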

How the data were processed

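Total RNA libraries of hippocampus were analysed from the tables the authors deposited, on mm10 with GENCODE M21 per the deposited notes. Per the file headers, gene and transcript tables in RSEM layout hold expected counts, TPM, FPKM and the percent of a gene's TPM in each transcript, and a transcript table in kallisto layout, deposited beside them, holds estimated counts and TPM. Percent shares were recomputed from TPM. Program versions and the use of strand were not given in the sources used here. Rows for ERCC spike-in RNAs (0.489% of counts in replicate 2, 0.493% in replicate 1) and rows with a number for a name (under 0.01%) were kept out of library sizes.

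Genes were matched by symbol and gene ID. Neurexin transcripts were classed from the annotation: beta where the first exon lies in an intron of the longest alpha transcript, in the 3′ part of the gene, and holds the start codon; alpha where a complete coding sequence begins upstream and runs past that start. Expected counts were rounded and scaled by TMM (edgeR 4.0.16, R 4.3.3). Ratios carry 95% exact binomial intervals. The 2-fold rule was tested on simulated counts with added variation. The intervals were tested on simulated counts with counting error alone, which leaves out the further variation between the libraries. A gene was detected at 1 TPM in both libraries and called apart past 2-fold at a mean count of 50. With 1 group there was no p-value. Named were all 9 genes, from each partner list the 2 highest genes, the lowest and any past 2-fold, and transcripts with 5% of a gene's TPM in either library. RefSeq promoters (GRCm38.p6) were matched by symbol. Members and lists were chosen with earlier results of these data known. Alternatives covered the quantification, unit, scaling, thresholds and leaving out either library. The lowest gene of 1 partner list and 1 exon sequence are not reported here.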

Additional observations from a re-analysis of the deposited data

How the results depend on the processing

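No paired analysis was possible because both libraries belong to a single group. The median level of the 9 genes, 68.1 TPM, was 119.7 TPM in the kallisto layout, 49.9 in FPKM and 156 TPM when rescaled over protein-coding genes. The Nlgn2 share of the neuroligins, 41.4%, was 36.0% in the kallisto layout and 43.7% in expected counts. With complete coding transcripts alone it was 53.5%, or 54.1% in the kallisto layout. The alpha share of Nrxn2, 32.9%, was 36.8% in the kallisto layout and 44.7% in expected counts. It was 31.9% when all transcripts were divided by position, with any start from 500 bases before the beta start onward counted as beta. That division includes non-coding transcripts, and it puts Nrxn2-213, which starts well past the beta start, with beta. The alpha share of Nrxn3, 85.1%, was 93.9% in expected counts, 92.7% by that division and 83.2% with the full N-terminus alone. Leaving out either library gave 65.5 to 70.7 TPM for the median, 40.5 to 42.2% for Nlgn2, 32.6 to 33.2% and 84.6 to 85.6% for the alpha shares of Nrxn2 and Nrxn3, and 56 to 57 partner genes detected. No gene of the 9 passed 2-fold under any scaling or count minimum tried. In TMM-scaled counts none passed 1.5-fold or 1.2-fold. Their 45 count ratios under 5 other scalings or count estimates lay between 0.925 and 1.16. TPM in the kallisto layout was further apart for Lrrtm4, past 1.2-fold, at 49.3 in replicate 2, against 37.3 in replicate 1. The alternatives restricted to complete coding transcripts or to the full N-terminus, and those for the insert shares, were chosen after seeing the data.

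Limits are 2 libraries with 1 donor label, no contrast, and transcript shares that rest on the annotation and on the quantifier. Nrxn3 beta rests on few counts. Intervals leave out biological variation.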
